A study of Homo sapiens with 9 samples.

Results

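The cytochrome P450 genes are the subject here: every gene on the array whose symbol starts with CYP and a digit, pseudogenes excluded. The gene names of the array platform gave 48 such protein-coding genes of 19775 genes with a probe set of their own. Another 5 pseudogenes and 2 antisense RNA genes with CYP symbols were set aside. HT-29 is an established line from a human colon adenocarcinoma, and 5-aza-deoxycytidine (5-Aza) is a cytidine analogue that traps DNA methyltransferases and so lowers DNA methylation in dividing cells. Cultures received vehicle (dimethyl sulfoxide, 0 µM 5-Aza), 5 µM 5-Aza or 10 µM 5-Aza for 5 days, with 3 biological replicates per group. Total RNA of each of the 9 cultures was hybridized to 1 Affymetrix human genome expression array. All cultures were of 1 cell line, so the replicates measure the spread between cultures and not between donors. Signals are given on the log2 scale, and the median of all probe sets on each array (5.07 to 5.52) served as the floor for low signals.

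Cytochrome P450 enzymes are heme proteins that insert an oxygen atom into fats, steroids, vitamins, bile acid precursors, drugs and pollutants. Those of the endoplasmic reticulum take their electrons from P450 oxidoreductase, and those of the mitochondria from ferredoxin. The drug-metabolizing families are best known in the liver, and the intestinal epithelium carries a smaller set that meets compounds taken up from food. Many are switched on by receptors that sense their substrates, such as AHR for CYP1A1, NR1I3 for CYP2B6 and the vitamin D receptor for CYP24A1.

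A gene was tested when its brightest probe set reached the floor on all 3 arrays of at least 1 group, which 11758 genes did. Of the 48 P450 genes, 23 were tested, 16 reached the floor on all 9 arrays and 18 stayed below it on all 9. The steroid hormone enzymes CYP11A1, CYP11B1, CYP11B2 and CYP17A1 were below the floor on every array, and aromatase, CYP19A1, reached it on 1 array of the 10 µM group only. Among the bile acid and oxysterol enzymes, CYP7A1, CYP7B1, CYP8B1 and CYP46A1 were below the floor throughout. CYP27A1, which acts on the cholesterol side chain, reached it on 2 arrays at 5 µM only. The drug-metabolizing genes CYP2A13, CYP2C8 and CYP2F1, the retinoid desaturase CYP27C1 and the fatty acid group genes CYP4F2, CYP4F8, CYP4F11, CYP4F22, CYP4X1 and CYP4Z1 were also below it on all 9 arrays. CYP2J2, CYP2D6, CYP2E1, CYP4A11 and CYP4B1 reached the floor with their brightest probe set on 1 to 6 arrays but in no complete group, and were not tested. A second CYP2D6 probe set did reach it on all 3 vehicle arrays, with 4.56, 4.63 and 3.60 at 5 µM against 5.53, 5.50 and 5.21 in vehicle. Tested on its own, it changed by -1.15 ± 0.49 at 5 µM, which did not pass (adjusted p = 0.124), while the brightest CYP2D6 probe set had means of 5.48 at 5 µM and 4.48 in vehicle.

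At 5 µM, 6 P450 genes rose relative to vehicle: CYP1A1, CYP26B1, CYP2A6, CYP2A7, CYP2B6 and CYP2U1. CYP4V2 fell. A call required an adjusted p (limma, Benjamini-Hochberg over all 11758 tested genes) of at most 0.05 and a change of more than 2-fold. Of all tested genes, 8.60% were called higher and 1.32% lower in this comparison. The 6 called genes were 12.5% of the 48 P450 genes, against 5.11% of all 19775 genes on the array. Of the 6 genes, 5 did not reach the floor on all vehicle arrays and entered the test through a treated group, and CYP2B6 was the exception. Without the fold threshold, 7 P450 genes were higher and 2 were lower, beside 2380 higher and 1561 lower of all 11758 tested genes. Without 5 µM replicate 2 only CYP2A6, CYP2B6 and CYP2U1 were called higher, which makes 3, and CYP1A1, CYP26B1 and CYP2A7 were not.

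Some of the genes that rose at 5 µM were lower again at 10 µM. No P450 gene was called higher at 10 µM than at 5 µM by limma or by the methods' t-test, and 0.264% of all tested genes were called higher. At an unadjusted limma p under 0.05, 2 P450 genes were higher and 5 lower. This cut was passed by 3816 of all 11758 tested genes, in either direction. CYP2A7 and CYP2B6 were called lower, beside 2.08% of all tested genes, and CYP2B6 alone without 5 µM replicate 1, 2 or 3 or 10 µM replicate 3. Relative to vehicle, 1 P450 gene, CYP2U1, remained called at 10 µM, where 6.09% of all tested genes were called higher. Without vehicle replicate 3 there were 3 such genes (CYP1A1 and CYP26B1 added), and without 10 µM replicate 3 there were 2 (CYP2J2 added). None was called lower at 10 µM than in vehicle by limma or by the methods' t-test, and 1.50% of all tested genes were called lower. At an unadjusted limma p under 0.05, 5 P450 genes were higher and 3 lower than in vehicle. That cut was passed by 5313 of all 11758 tested genes, in either direction. The comparisons at 5 and 10 µM share the 3 vehicle arrays, and those of 5 µM with vehicle and of 10 µM with 5 µM share the 5 µM arrays.

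**Figure D1:**
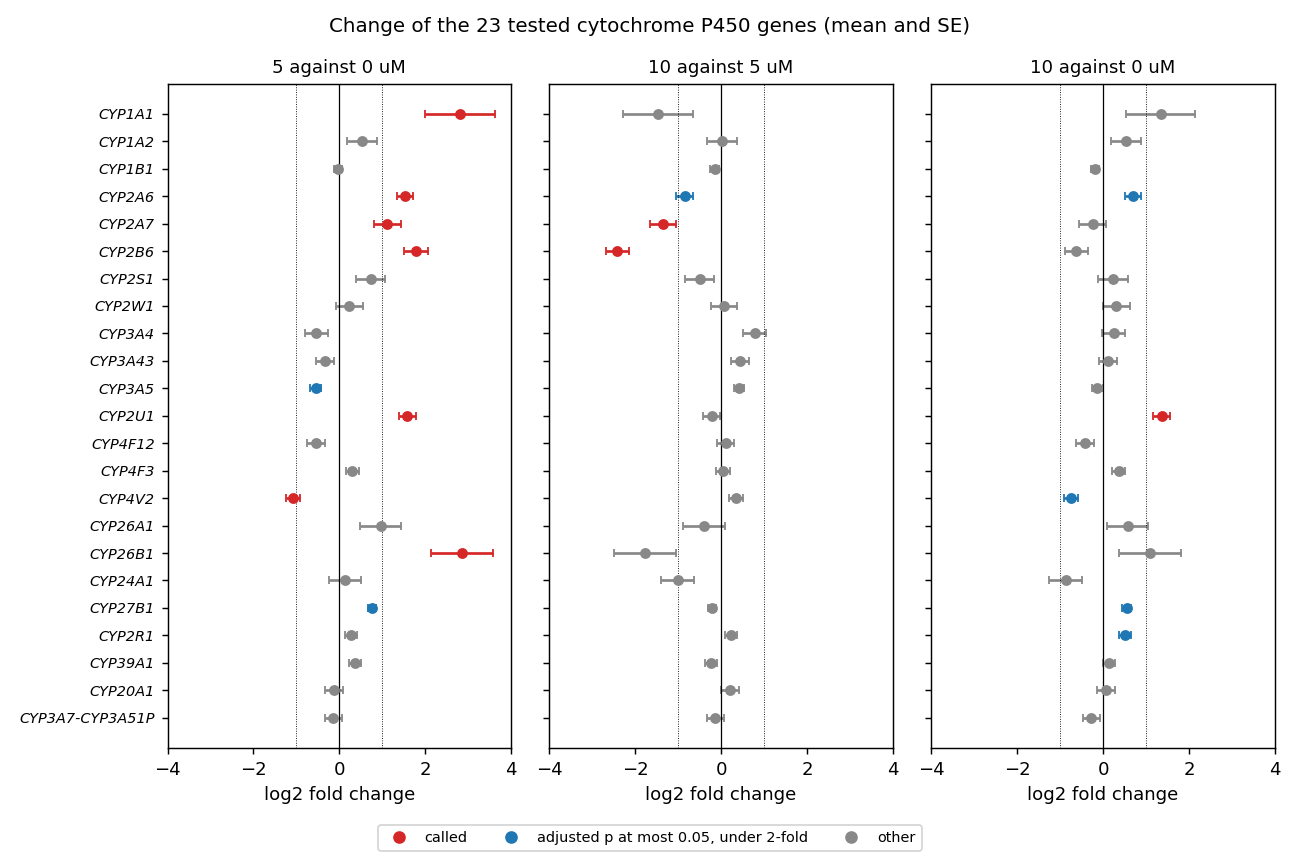
Log2 fold change (x axis) with its standard error for the 23 tested P450 genes, grouped by role from the drug-metabolizing genes at the top, in 3 panels for 5 against 0 µM, 10 against 5 µM and 10 against 0 µM (n = 3 arrays per dose). Red points are called genes, 6 to the right and 1 to the left in the first panel, 2 to the left in the second and 1 to the right in the third; blue points passed the adjusted p but not 2-fold, shown by dotted lines.

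The median change over the 23 tested P450 genes was 0.31 on the log2 scale at 5 µM against vehicle, beside 0.04 over all tested genes. It was -0.15 for 10 µM against 5 µM, beside -0.01, and 0.23 for 10 µM against vehicle, beside 0.05. Because tested genes include those that passed the floor only in the group where they were high, these medians describe the tested genes and not all 48.

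**Figure D2:**
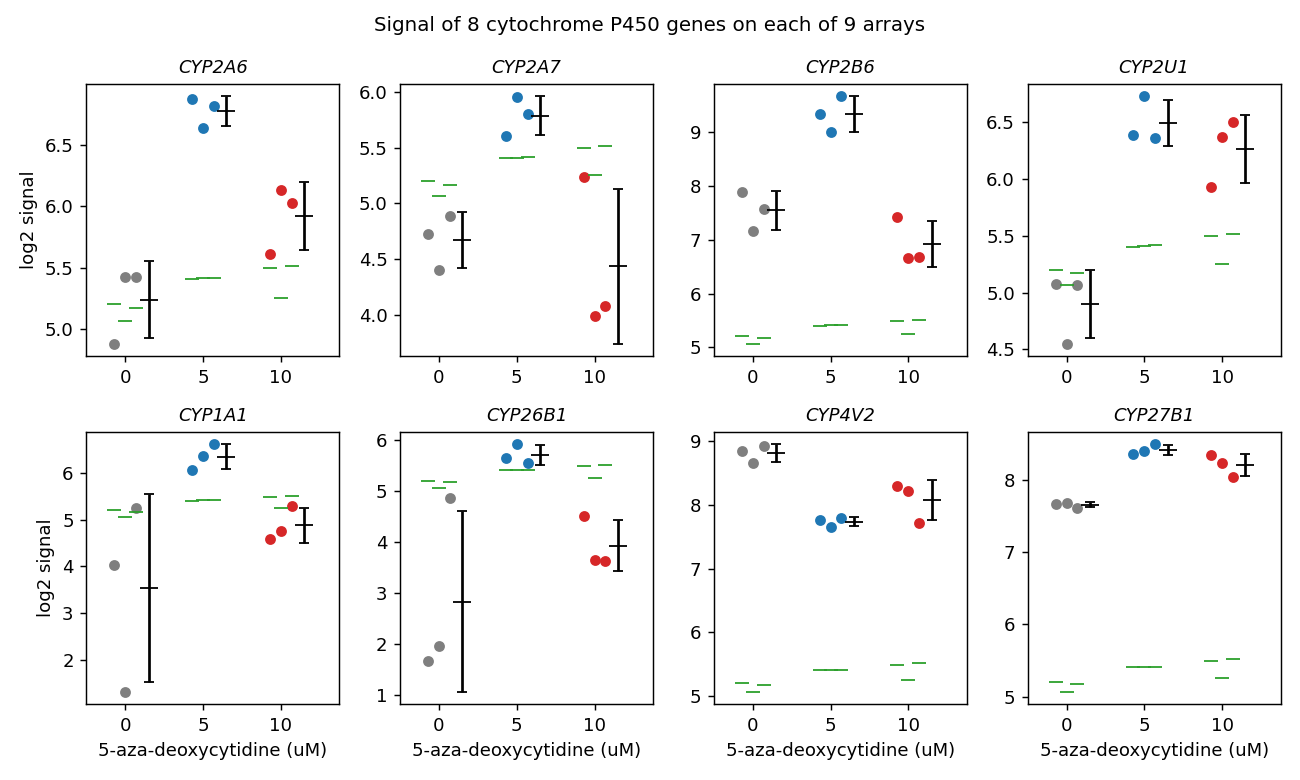
Log2 signal (y axis) of 8 P450 genes on each of the 9 arrays by 5-Aza dose in µM (x axis), with the mean and SD of each group in black and the floor of each array as a green dash. CYP2A6, CYP2A7, CYP2B6, CYP1A1 and CYP26B1 are brightest at 5 µM, CYP2U1 stays up at 10 µM, and CYP4V2 is lower on every treated array than on every vehicle array.

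The CYP2 cluster on chromosome 19 held 3 of the 6 genes that rose at 5 µM. CYP2A6 clears nicotine and coumarin, CYP2B6 oxidizes bupropion, efavirenz and cyclophosphamide, and CYP2A7 is a close relative of CYP2A6 without known activity. CYP2A6 and CYP2A7 lie next to each other on the minus strand, and CYP2B6 follows on the plus strand with the pseudogene CYP2B7P between them. The 250 bases before each start site are shown because the 3 genes rose together, with CpG, the dinucleotide that is methylated in human DNA, in capitals (RefSeq, GRCh38.p14). CYP2A6 is at chr19:40850448-40850697 (minus strand), CYP2A7 at chr19:40882232-40882481 (minus strand) and CYP2B6 at chr19:40991032-40991281 (plus strand).
CYP2A6: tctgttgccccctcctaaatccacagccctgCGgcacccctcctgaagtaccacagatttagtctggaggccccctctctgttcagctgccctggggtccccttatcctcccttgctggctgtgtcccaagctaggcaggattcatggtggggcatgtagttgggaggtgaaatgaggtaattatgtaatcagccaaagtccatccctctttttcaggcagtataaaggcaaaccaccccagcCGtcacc
CYP2A7: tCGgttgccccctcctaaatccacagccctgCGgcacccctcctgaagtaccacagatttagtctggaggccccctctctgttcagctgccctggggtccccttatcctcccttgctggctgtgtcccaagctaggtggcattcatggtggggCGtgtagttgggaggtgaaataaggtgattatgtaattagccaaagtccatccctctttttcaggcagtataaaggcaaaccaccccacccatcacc
CYP2B6: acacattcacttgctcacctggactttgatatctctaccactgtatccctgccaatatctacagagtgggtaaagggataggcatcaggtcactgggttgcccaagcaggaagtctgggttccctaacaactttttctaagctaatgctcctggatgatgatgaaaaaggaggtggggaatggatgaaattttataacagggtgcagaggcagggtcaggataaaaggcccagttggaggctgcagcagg
The CYP2A6 and CYP2A7 stretches carried the same base at 240 of 250 positions. They held 2 and 3 CpG, and the CYP2B6 stretch held 0.

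CYP2B6 signals were 7.89, 7.17 and 7.57 in vehicle, 9.33, 9.01 and 9.67 at 5 µM and 7.42, 6.66 and 6.68 at 10 µM. All 5 µM arrays were above all others, and the 10 µM and vehicle arrays overlapped. The log2 fold change was 1.79 ± 0.27 (SE, n = 3 arrays per group, limma adjusted p = 0.00134) at 5 µM against vehicle. It was -2.42 ± 0.27 (adjusted p = 0.0024) at 10 µM against 5 µM, the largest fall among the P450 genes in that comparison. At 10 µM against vehicle it was -0.62 ± 0.27 (adjusted p = 0.102), which did not pass. The second CYP2B6 probe set was dim, with means of 4.76, 5.29 and 4.74 at 0, 5 and 10 µM. With both averaged, the change was 1.16 at 5 µM against vehicle and -1.49 at 10 µM against 5 µM, both called. The call at 5 µM held when each of the 9 arrays was left out in turn.

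CYP2A6 signals were 4.88, 5.42 and 5.42 in vehicle, 6.87, 6.64 and 6.82 at 5 µM and 5.61, 6.13 and 6.03 at 10 µM. The 3 groups did not overlap, with 10 µM between the others. At 5 µM against vehicle the log2 fold change was 1.54 ± 0.19 (adjusted p = 0.000494). The 10 µM signals differed from those at 5 µM by -0.85 ± 0.19 (adjusted p = 0.0197). They were above vehicle by 0.69 ± 0.19 (adjusted p = 0.023), and neither difference reached 2-fold on the brightest probe set. Of the 4 CYP2A6 probe sets, the 3 that could be tested on their own were all called higher at 5 µM, with log2 fold changes of 1.54, 1.66 and 2.60. At 10 µM against vehicle 1 of the 3 was called (1.01, adjusted p = 0.0209), and another changed by 1.37 without passing (adjusted p = 0.0613). These probe sets can bind transcripts of near-identical relatives, so CYP2A6, CYP2A7 and CYP2A13 signals cannot be fully told apart.

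CYP2A7 signals were 4.73, 4.40 and 4.89 in vehicle, 5.61, 5.96 and 5.80 at 5 µM and 5.24, 3.99 and 4.08 at 10 µM. Only the 5 µM arrays reached the floor, and they lay above all 6 others. With signals below the floor raised to it, CYP2A7 was at least 1.56-fold higher at 5 µM (mean 5.79 ± 0.17, SD, n = 3) than in vehicle (4.67 ± 0.25), with adjusted p = 0.0228 in the fit of the measured signals. At 10 µM (4.44 ± 0.70) the fall against 5 µM was 1.29-fold or more, with adjusted p = 0.022 in the fit of the measured signals. The call at 5 µM was lost without vehicle replicate 1 or 2 or without 5 µM replicate 2 or 3 (adjusted p = 0.0543, 0.0779, 0.0739 and 0.0644). It was also lost with quantile normalization (adjusted p = 0.057), equal array medians (log2 fold change 0.85) or no filter on low signals (adjusted p = 0.0715). With low signals raised to the floor the 5 µM change was 0.65, under 2-fold and so not called. The fall at 10 µM was lost without 5 µM replicate 1, 2 or 3 or 10 µM replicate 3 (adjusted p = 0.0548, 0.0776, 0.0798 and 0.0846). It was also lost with no filter on low signals (adjusted p = 0.0817) and by the methods' t-test (adjusted p = 0.152). With low signals raised to the floor it was -0.37 and not called (adjusted p = 0.0613). With 10 µM replicate 1 alone at that dose the change was -0.55.

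The pseudogene CYP2B7P, which is no member of the set, had signals of 5.22, 5.35 and 4.47 in vehicle, 7.46, 7.23 and 6.47 at 5 µM and 6.44, 5.50 and 6.34 at 10 µM. Every treated array was above every vehicle array, and the log2 fold change at 5 µM was 2.04 ± 0.35 (adjusted p = 0.00271). CYP2B6 and CYP2B7P are near-identical in sequence, and how far each probe set binds the transcript of the other was not tested. CYP2S1, a member at the far end of the cluster, had 6.63, 5.87 and 6.32 in vehicle, 6.71, 6.94 and 7.35 at 5 µM and 7.27, 5.95 and 6.27 at 10 µM. Its change at 5 µM of 0.73 ± 0.34 (adjusted p = 0.134) did not pass. CYP2A13 and CYP2F1, between CYP2B6 and CYP2S1, were below the floor on every array.

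**Figure D3:**
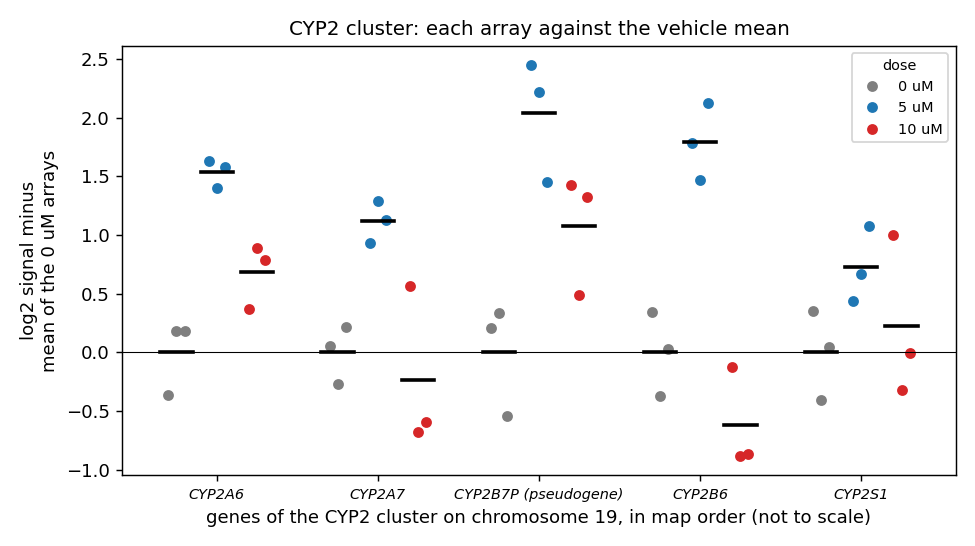
Log2 signal of each array minus the mean of the vehicle arrays (y axis) for 4 P450 genes and the pseudogene CYP2B7P of the chromosome 19 cluster, in map order, with 3 points per dose and a bar at their mean. The 5 µM points of CYP2A6, CYP2A7, CYP2B7P, CYP2B6 and CYP2S1 lie above all their vehicle points, and the CYP2S1 change was not called. The 10 µM points of CYP2A7, CYP2B6 and CYP2S1 overlap their vehicle points.

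The CYP1 family oxidizes polycyclic aromatic hydrocarbons and is the classical target of the aryl hydrocarbon receptor, which binds DNA at the letters GCGTG. The 250 bases before the CYP1A1 start are shown because they hold this motif, in capitals below (chr15:74725529-74725778, minus strand, RefSeq, GRCh38.p14).
CYP1A1: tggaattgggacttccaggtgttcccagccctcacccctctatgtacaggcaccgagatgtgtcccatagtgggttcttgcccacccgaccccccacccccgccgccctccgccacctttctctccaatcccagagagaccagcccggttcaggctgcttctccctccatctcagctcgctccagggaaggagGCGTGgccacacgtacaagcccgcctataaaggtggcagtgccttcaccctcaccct
GCGTG was searched on both strands of 300-base windows, from 250 bases before to 50 bases after the start, and 36.5% of all 35116 such windows hold it. It is not particular to CYP1A1: 11 of the 48 windows of P450 genes hold it. Among them are windows of the called genes CYP2A7, CYP2U1 and CYP4V2 and of CYP20A1 and CYP2W1, which were not called. The match is a description of the letters only.

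CYP1A1 signals were 4.04, 1.32 and 5.25 in vehicle, 6.07, 6.36 and 6.61 at 5 µM and 4.58, 4.75 and 5.30 at 10 µM. The 5 µM arrays were above all others, 1 of 3 vehicle arrays reached the floor and no 10 µM array did. The means were 6.35 ± 0.27 at 5 µM and 3.54 ± 2.01 in vehicle (SD, n = 3 each), a fitted log2 fold change of 2.81 ± 0.81 (SE, adjusted p = 0.0273). Since 2 of 3 vehicle signals were below the floor, this size is uncertain: it was 1.17 with low signals raised to the floor and 1.70 without vehicle replicate 2, both called. The call was lost without 5 µM replicate 1, 2 or 3 (adjusted p = 0.0644, 0.0706 and 0.0816) and with no filter on low signals or by the methods' t-test (adjusted p = 0.082 and 0.142). The 10 µM arrays lay at least 1.90-fold under those of 5 µM, and that difference did not pass (adjusted p = 0.245), but did in a fit of these 2 groups alone (adjusted p = 0.0093) and without vehicle replicate 2 (adjusted p = 0.0286). Against vehicle the 10 µM change of 1.34 ± 0.81 did not pass (adjusted p = 0.23), but did without vehicle replicate 3 (2.20, adjusted p = 0.0443).

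The other CYP1 genes were not called. CYP1B1, which also activates estrogens and aromatic procarcinogens, averaged 10.26 ± 0.07, 10.22 ± 0.12 and 10.07 ± 0.06 at 0, 5 and 10 µM. Its change at 5 µM was -0.03 ± 0.10 (adjusted p = 0.817), and 0.01 with quantile normalization. A second CYP1B1 probe set gave -0.54 at 10 µM against vehicle (adjusted p = 0.0215, under 2-fold). CYP1A2, the caffeine demethylase, averaged 6.64 ± 0.82, 7.17 ± 0.27 and 7.18 ± 0.18, a change of 0.53 ± 0.35 at 5 µM (adjusted p = 0.277), and its second probe set was far below the floor. AHR itself changed by -0.18 at 5 µM (adjusted p = 0.299). AHRR, its repressor, had 8.33, 8.10 and 8.14 at 5 µM against 8.75, 8.90 and 9.05 in vehicle (-0.71, adjusted p = 0.00268, under 2-fold).

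The CYP26 enzymes break down retinoic acid, the hormone form of vitamin A that drives differentiation of epithelial cells. CYP26B1 signals were 1.68, 1.96 and 4.87 in vehicle, 5.64, 5.92 and 5.54 at 5 µM and 4.51, 3.65 and 3.64 at 10 µM. Only the 5 µM arrays reached the floor and they did not overlap with the rest. CYP26B1 was at least 1.47-fold higher at 5 µM (5.70 ± 0.20) than in vehicle (2.84 ± 1.77), with adjusted p = 0.0159 and a fitted log2 fold change of 2.87 that rests on signals below the floor. The call was lost without vehicle replicate 1 or 2 or 5 µM replicate 2 (adjusted p = 0.0532, 0.0576 and 0.0513). It was also lost with no filter on low signals and by the methods' t-test. With low signals raised to the floor the change was 0.56, under 2-fold and so not called. The lower signal at 10 µM than at 5 µM was not called (adjusted p = 0.131), but was in a fit of these 2 groups alone (adjusted p = 0.00772). Without vehicle replicate 3, CYP26B1 was called higher at 10 µM than in vehicle (2.12, adjusted p = 0.00211). A second CYP26B1 probe set moved the other way below the floor, with means of 4.07, 2.73 and 2.70 at 0, 5 and 10 µM.

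The CYP26B1 promoter is shown for its CpG content (chr2:72147863-72148112, minus strand, 16 CpG in 250 bases, in capitals, RefSeq, GRCh38.p14).
CYP26B1: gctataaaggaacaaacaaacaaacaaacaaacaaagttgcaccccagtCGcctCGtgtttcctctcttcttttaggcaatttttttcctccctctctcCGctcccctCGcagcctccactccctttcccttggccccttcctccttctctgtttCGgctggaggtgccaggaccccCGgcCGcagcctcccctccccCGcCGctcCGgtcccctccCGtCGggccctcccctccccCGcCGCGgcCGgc
CYP26A1, the other tested enzyme of this group, had 6.05, 3.85 and 5.51 in vehicle, 5.98, 6.29 and 6.05 at 5 µM and 6.05, 5.61 and 5.45 at 10 µM. Its groups overlapped, and its change at 5 µM of 0.97 ± 0.48 did not pass (adjusted p = 0.15), but did without vehicle replicate 1 (1.43, adjusted p = 0.045).

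In the fatty acid group, CYP2U1 rose and CYP4V2 fell. CYP2U1 hydroxylates arachidonic acid and related long-chain fatty acids, and its loss causes a hereditary spastic paraplegia. CYP4V2 hydroxylates fatty acids at their terminal carbon, and its loss causes Bietti crystalline dystrophy of the retina. Both genes are on chromosome 4 and both promoters are dense in CpG, shown in capitals for comparison with the sparse CYP2A6 and CYP2B6 stretches (CYP2U1 at chr4:107931299-107931548, 25 CpG; CYP4V2 at chr4:186191317-186191566, 29 CpG; plus strand, RefSeq, GRCh38.p14).
CYP2U1: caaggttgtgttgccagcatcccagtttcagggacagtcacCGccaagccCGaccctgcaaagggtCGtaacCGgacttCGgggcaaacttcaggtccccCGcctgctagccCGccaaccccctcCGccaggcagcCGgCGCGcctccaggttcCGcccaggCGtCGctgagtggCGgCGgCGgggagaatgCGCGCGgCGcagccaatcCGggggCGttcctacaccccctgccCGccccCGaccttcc
CYP4V2: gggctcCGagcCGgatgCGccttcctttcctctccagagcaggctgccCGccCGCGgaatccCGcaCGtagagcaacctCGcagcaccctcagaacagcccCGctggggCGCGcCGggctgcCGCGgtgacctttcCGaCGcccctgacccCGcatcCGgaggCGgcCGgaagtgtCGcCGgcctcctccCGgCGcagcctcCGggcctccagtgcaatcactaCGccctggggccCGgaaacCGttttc

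CYP2U1 signals were 5.08, 4.55 and 5.07 in vehicle, 6.39, 6.73 and 6.36 at 5 µM and 5.93, 6.37 and 6.50 at 10 µM. All 6 treated arrays were above the floor and above all vehicle arrays, which were below it, and the treated groups overlapped. CYP2U1 was at least 2.55-fold higher at 5 µM (6.49 ± 0.20) than in vehicle (4.90 ± 0.30), with a fitted log2 fold change of 1.59 ± 0.20 (adjusted p = 0.000554). At 10 µM (6.27 ± 0.30) it was at least 2.18-fold higher than in vehicle (1.37 ± 0.20, adjusted p = 0.00171). The change from 5 to 10 µM was -0.22 ± 0.20 (adjusted p = 0.47). A second probe set, tested on its own, was also called higher at both doses (1.39 at 5 µM and 1.77 at 10 µM, adjusted p = 0.00316 and 0.00164). Both calls held without each of the 9 arrays. With its 4 probe sets averaged, of which 2 were dim, or with the floor at the 60th percentile, CYP2U1 did not pass the filter and was not tested.

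CYP4V2 signals were 8.85, 8.65 and 8.93 in vehicle, 7.77, 7.65 and 7.79 at 5 µM and 8.29, 8.21 and 7.71 at 10 µM. Every treated array was below every vehicle array, and the treated groups overlapped. The log2 fold change against vehicle was -1.07 ± 0.16 (adjusted p = 0.0013) at 5 µM. The 10 µM value of -0.74 ± 0.16 (adjusted p = 0.00919) was under 2-fold. The second tested probe set gave -0.81 and -0.68 at these doses (adjusted p = 0.00608 and 0.0136). With the 4 probe sets averaged, the change at 5 µM was under 2-fold. With equal array medians the 10 µM change was called (-1.01, adjusted p = 0.00377).

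CYP4F12 and CYP4F3, which act on leukotrienes and fatty acids, did not pass. CYP4F12 had 6.28, 6.56 and 6.54 at 5 µM against 6.99, 6.89 and 7.12 in vehicle, without overlap (-0.54 ± 0.20, adjusted p = 0.067). CYP4F3 changed by 0.31 ± 0.16 at 5 µM (adjusted p = 0.164). The CYP4F genes are close relatives, so signals of single members are uncertain.

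The vitamin D enzymes were measured on all 9 arrays, and none was called in the 3 comparisons. CYP27B1 makes the active hormone calcitriol, CYP2R1 carries out the preceding hydroxylation in the pathway, and CYP24A1 inactivates both products. CYP27B1 had 7.66, 7.68 and 7.61 in vehicle, 8.35, 8.39 and 8.49 at 5 µM and 8.34, 8.23 and 8.03 at 10 µM. All treated arrays were above all vehicle arrays, and both changes were under 2-fold. The 5 µM change against vehicle was 0.76 ± 0.10 (adjusted p = 0.00089). The 10 µM change was 0.55 ± 0.10 (adjusted p = 0.00535). CYP2R1 averaged 10.07 ± 0.18, 10.34 ± 0.14 and 10.57 ± 0.19 at 0, 5 and 10 µM, and its change against vehicle was 0.27 ± 0.14 (adjusted p = 0.168) for the lower dose. For the higher dose it was 0.50 ± 0.14 (adjusted p = 0.0259). A second CYP2R1 probe set changed by 0.03 at 10 µM (adjusted p = 0.914).

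CYP24A1 had 7.33, 7.09 and 6.98 in vehicle, 6.92, 6.67 and 8.23 at 5 µM and 6.10, 5.98 and 6.70 at 10 µM. The 10 µM arrays were below all vehicle arrays, and 5 µM replicate 3 stood above the other 5 µM arrays. Its change at 5 µM of 0.14 ± 0.38 was -0.06 with quantile normalization, -0.13 with equal array medians and -0.34 without that replicate. The changes of -1.01 ± 0.38 for 10 µM against 5 µM and -0.87 ± 0.38 for 10 µM against vehicle did not pass (adjusted p = 0.101 and 0.105). With equal array medians CYP24A1 was called lower at 10 µM than in vehicle (-1.15, adjusted p = 0.0286). VDR, the receptor, changed by -0.40 at 5 µM (adjusted p = 0.0114, under 2-fold).

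The CYP3A genes on chromosome 7 are the main drug-oxidizing genes of the intestine, and CYP3A5 was lower at 5 µM by less than 2-fold. CYP3A5 had 13.43, 13.33 and 13.60 in vehicle, 12.99, 12.73 and 12.98 at 5 µM and 13.43, 13.15 and 13.38 at 10 µM. The 5 µM arrays were below all others, and the 10 µM and vehicle arrays overlapped. The change at 5 µM was -0.55 ± 0.12 (adjusted p = 0.00958), and the 4 CYP3A5 probe sets ranged between -0.83 and -0.46. At 10 µM against 5 µM it was 0.42 ± 0.12 (adjusted p = 0.0522).

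CYP3A4 had 7.52, 7.42 and 6.40 at 5 µM against 7.55, 7.67 and 7.70 in vehicle, a change of -0.53 ± 0.27 (adjusted p = 0.158) with 5 µM replicate 3 standing below the other arrays. CYP3A43 changed by -0.33 ± 0.21 and the readthrough gene CYP3A7-CYP3A51P by -0.14 ± 0.20 at 5 µM (adjusted p = 0.273 and 0.636). CYP3A transcripts are much alike and the CYP3A4 and CYP3A43 probe sets can bind relatives, so the values of single members are uncertain.

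The remaining tested genes did not pass in any comparison. CYP2W1, known for its expression in colon tumours, averaged 5.23 ± 0.57, 5.47 ± 0.04 and 5.55 ± 0.50 at 0, 5 and 10 µM, close to the floor, and its change of 0.24 at 5 µM was -0.02 with quantile normalization and -0.03 with equal array medians. CYP39A1, an oxysterol hydroxylase, averaged 6.77 ± 0.14, 7.14 ± 0.25 and 6.90 ± 0.11 (0.36 ± 0.14 at 5 µM). CYP20A1, whose substrate is not known, averaged 6.72 ± 0.35, 6.58 ± 0.12 and 6.79 ± 0.35 (-0.13 ± 0.21 at 5 µM). The adjusted p of these 3 genes was 0.0817 or more in the 3 comparisons. A second CYP39A1 probe set, above the floor on all 9 arrays, gave 0.76 ± 0.19 at 5 µM when tested on its own (adjusted p = 0.0227, under 2-fold), and the third gave 0.07 (adjusted p = 0.801).

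Promoter windows of 300 bases were found for 35 of the 48 P450 genes. Over all 35116 windows the median was 14 CpG, with 4 at the 25th and 28 at the 75th percentile. The genes that rose at 5 µM lay below, within and above this range, with 1 CpG for CYP2B6, 2 for CYP2A6, 3 for CYP2A7, 10 for CYP1A1, 19 for CYP26B1 and 31 for CYP2U1. CYP4V2, which fell, had 36, the most of any P450 window. Of the tested genes with a window, 9 had at most 5 CpG and 3 of these were called higher, and 10 had at least 10 CpG, of which 3 were called higher and 1 lower. CYP2S1 with 29 and CYP26A1 with up to 32 CpG were not called. These counts carry no test, and DNA methylation itself was not measured here.

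**Figure D4:**
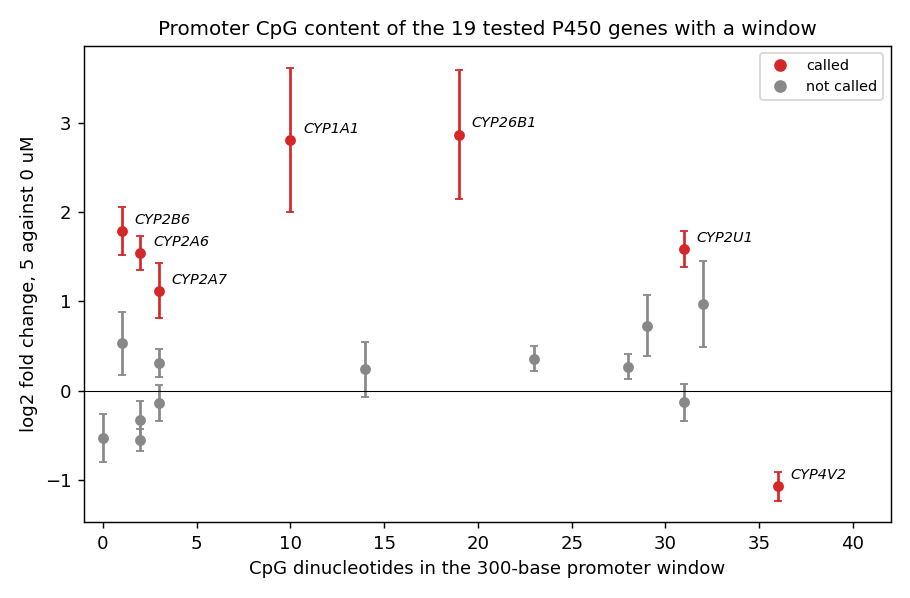
Number of CpG dinucleotides in the 300-base promoter window (x axis; the window with the most CpG where a gene has several) against the log2 fold change at 5 against 0 µM with its standard error (y axis) for the 19 tested P450 genes with a window. Called genes, in red and named, lie at 1 to 3 CpG and from 10 CpG up to 36.

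Genes that work with the P450 enzymes were followed as 4 lists. Of 8 measured redox partners, which hand electrons to the P450 enzymes, none was called in the 3 comparisons by limma or by the methods' t-test. At an unadjusted limma p under 0.05, 4 of them were higher and 1 lower at 5 µM. This cut was passed by 5244 of all 11758 tested genes, in either direction. The median change of the redox partners was 0.18, beside 0.04 over all tested genes. POR, the P450 oxidoreductase, had 9.11, 9.09 and 8.83 at 5 µM against 8.23, 8.52 and 8.62 in vehicle (0.55, adjusted p = 0.0669). CYB5A, a cytochrome b5 that assists several P450 enzymes, changed by -0.64 (adjusted p = 0.0153, under 2-fold). None of the 9 measured heme synthesis and breakdown genes was called by either test, with 0 higher and 1 lower at 5 µM at an unadjusted p under 0.05 and a median change of -0.05.

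Among 21 measured regulators, 16 were tested and 1 was called at 5 µM, where 8.60% of all tested genes were called higher and 1.32% lower. NR0B2, the small heterodimer partner that represses bile acid synthesis genes, had 6.07, 5.89 and 5.81 at 5 µM against 3.35, 5.27 and 4.55 in vehicle (1.53 ± 0.49, adjusted p = 0.0403), with 2 of 3 vehicle signals below the floor. At 10 µM, with 2.65, 2.85 and 4.05, it was below the floor and 1.42-fold or more under its 5 µM signal (adjusted p = 0.01). By the methods' t-test 0 regulators were called in either comparison. NR1I3, the receptor that drives CYP2B6 in liver, was below the floor on all 9 arrays. The median change of the tested regulators was -0.21 at 5 µM and -0.31 at 10 µM against vehicle, beside 0.04 and 0.05 over all tested genes. None was called at 10 µM against vehicle by limma or by the methods' t-test. At an unadjusted limma p under 0.05, 9 were lower and 0 higher there. This cut was passed by 5313 of all 11758 tested genes, in either direction.

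Of 28 measured enzymes that act before or after the P450 step, 20 were tested, and 3 were called higher and 3 lower at 5 µM. Over all tested genes, 8.60% were called higher and 1.32% lower in that comparison. ALDH1A3, which makes retinoic acid, had 8.22, 8.12 and 8.62 at 5 µM against 6.02, 6.01 and 5.60 in vehicle (2.44 ± 0.19, adjusted p = 4.31e-05), and stayed higher at 10 µM (1.64). GSTA4, a glutathione transferase for lipid aldehydes, was higher at both doses, by 1.95 at 5 µM and 1.45 at 10 µM. GSTM3, another glutathione transferase, reached the floor at 5 µM only, where it was at least 2.03-fold higher than in vehicle (adjusted p = 0.0223). Its fall at 10 µM against 5 µM was 1.67-fold or more (adjusted p = 0.03), and was not called by the methods' t-test.

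ALDH3A1, an aldehyde dehydrogenase, changed by -1.51 at 5 µM and -1.33 at 10 µM against vehicle. DHRS3, which turns retinaldehyde back to retinol, changed by -1.09 and -1.13, and the amine oxidase MAOB by -1.03 and -1.75. MAOA (-1.13) and the sulfotransferase SULT2B1 were called lower at 10 µM and not at 5 µM. The difference between the doses passed the adjusted p for MAOA (-0.79, adjusted p = 0.0208) and not for SULT2B1 (-0.32, adjusted p = 0.171).

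Several measures of the arrays moved with dose. The signal of the actin 3′ control minus that of its 5′ control, which grows as RNA shortens, was 1.91 to 2.29 in vehicle, 2.49 to 2.69 at 5 µM and 2.84 to 3.16 at 10 µM, without overlap. With this difference as a covariate, CYP2B6 was the 1 P450 gene called at 5 µM and none was called at 10 µM, but the covariate follows dose so closely that the 2 cannot be told apart. The 5′ control of 18S ribosomal RNA was 13.45 and 13.60 on 10 µM replicates 2 and 3 and 11.77 to 12.56 on the other arrays, and without these 2 arrays 6 P450 genes were called higher at 5 µM, with CYP2J2 in place of CYP1A1 (adjusted p = 0.0587). With array medians made equal, the median change of all genes was -0.22 at 5 µM, against 0.04 as deposited, the share of calls that were higher was 61.9% in place of 86.7%, and CYP2A7 was no longer called.

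Markers of other cell types were read on the same arrays. Of 14 colonic epithelium markers 10, among them EPCAM, KRT20, CDH17 and VIL1, were above the floor on all 9 arrays, while CDX1, CDX2 and PHGR1 were below it on all. The summed linear signal of this list was 69900 to 78200 at 5 µM and 65600 to 74300 at 10 µM against 104000 to 108000 in vehicle. KRT19, an epithelial keratin, and GPA33, a surface antigen of colonic epithelium, were called lower at 5 µM. KRT19 changed by -1.54 (adjusted p = 1.68e-05), and GPA33, below the floor on all 5 µM arrays, was at least 1.53-fold lower (adjusted p = 0.0299). By the methods' t-test 1 marker of this list was called lower. Of 18 hepatocyte markers, 10 including ALB, APOA1, APOB and FGA were below the floor on all 9 arrays. APOH and SERPINA1 were above it on all 9. Their means at 0, 5 and 10 µM were 10.76, 10.73 and 10.79 for APOH and 11.93, 12.72 and 11.35 for SERPINA1. The summed linear signal of the hepatocyte list came mostly from these genes. It was 8100 to 9540 at 5 µM and 3830 to 6870 at 10 µM against 5820 to 6040 in vehicle. At 10 µM against 5 µM, SERPINA1 was called lower (-1.37, limma adjusted p = 0.0244), but not by the methods' t-test. APOA2, a lipoprotein gene of that list, was at least 1.45-fold higher at 5 µM (5.68) than in vehicle (2.39, adjusted p = 0.00554). At 10 µM it was below the floor on every array (2.11) and also called lower than at 5 µM (limma adjusted p = 0.011), but not by the methods' t-test. Of 10 fibroblast and endothelial markers 5 were below the floor on all 9 arrays, while COL1A1 and LUM were higher at 5 µM than in vehicle (2.68 and 1.57, adjusted p = 0.000141 and 0.000165). PECAM1, like them above the floor on all 9 arrays, was not called (0.63 at 5 µM, limma adjusted p = 0.0905). The sum of that list was 1150 to 1250 at 5 µM and 699 to 854 at 10 µM against 362 to 487 in vehicle. Of 6 measured blood cell markers, PTPRC and ITGB2 were below the floor on all arrays, and CD14 and LYZ were above it on all 9. HBB reached it on 3 vehicle arrays and 2 of the 5 µM arrays, and CD3E on 1 vehicle array. The sum, mostly LYZ, was 8920 to 10100 at 5 µM and 10700 to 11800 at 10 µM against 12900 to 13700 in vehicle. Of 8 steroid-making cell markers 4, STAR, NR5A1, HSD3B2 and INHA, were below the floor on all 9 arrays. FDX1, a ferredoxin also listed among the redox partners, was above it on all 9, with means of 9.48, 9.10 and 9.23 at 0, 5 and 10 µM. The sum, mostly FDX1, was 586 to 823 at 5 µM and 649 to 903 at 10 µM against 769 to 875 in vehicle. HSD3B1, an enzyme of steroid hormone synthesis, reached the floor on the 10 µM arrays only, where it was at least 1.42-fold higher than in vehicle (adjusted p = 0.0163, not called by the methods' t-test). The part of these differences in the P450 results was not tested.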

How the data were processed

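Total RNA of 9 HT-29 cultures, 3 per dose, had been labelled with biotin and hybridized to 1 array each. The deposited log2 signals of 54675 probe sets were used as given. The submitters' notes name RMA and affy 1.14.2, but the values have the form of MAS 5.0 signals: after 2% trimming the linear signals average 250.0 on each of the arrays, the minimum is -3.32, and each array has 1 scaling factor. Dim signals are therefore noisy.

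Genes were named from the platform annotation (41097 probe sets with 1 gene, 1801 with several, 11721 with none). Another 11 probe sets name a P450 gene together with another gene and were not used, and 6 probe sets with a missing value were left out. The brightest probe set by mean signal stood for each gene. limma 3.58.1 in R 4.3.3 fitted 1 mean per dose over the 9 arrays. Named genes were all P450 genes, with every array for those called. The other genes named are a choice from the lists and include genes that were not called. On simulated data for 5 µM against 0 µM (11758 genes), 45 of 50 genes changed 2.5-fold and 0 of 50 changed 1.5-fold were called, with 3 false calls. The simulated noise had 1 spread per gene in all groups, and the filter was not applied anew. These counts therefore do not cover genes near the floor with unequal spread, such as CYP1A1 and CYP26B1. The gene set and lists were chosen with earlier results of these data known. Figures were drawn with matplotlib 3.10.9. Precision is limited by 3 arrays per dose.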

Additional observations from a re-analysis of the deposited data

Results flagged for a closer look

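For 3 genes, all of the chromosome 19 cluster, the change against vehicle differed between the doses by the limma test of 10 µM against 5 µM. The log2 difference of 10 µM from 5 µM was -2.42 for CYP2B6 (adjusted p = 0.0024), -1.35 for CYP2A7 (adjusted p = 0.022) and -0.85 for CYP2A6 (adjusted p = 0.0197). The CYP2A6 and CYP2A7 probe sets can share transcripts, so these are not 3 independent measurements.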

How the results depend on the processing

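At 5 µM against vehicle, the 6 P450 genes called higher became 3 with no filter on low signals, 2 with the floor at the 60th percentile, 1 with the 3′ to 5′ difference of the actin controls in the model (the actin covariate) and 3 to 7 with 1 array left out. The 1 gene called lower became 0 with probe sets averaged or with the actin covariate, became 2 without the fold threshold and was 1 with any array left out. At 10 µM against 5 µM, the 2 genes called lower became 1 with no filter, with the 60th percentile, without _x_at and _s_at probe sets, with the methods' t-test or after raising low signals. They became 4 in a fit of the 2 groups alone, 0 with the actin covariate and 1 to 3 with 1 array left out. At 10 µM against vehicle, the 1 gene called higher became 0 with the 60th percentile, averaged probe sets or the actin covariate, 2 with array weights, 4 without the fold threshold and 1 to 3 with 1 array left out. The 0 genes called lower there became 2 with equal array medians, 1 with array weights and 1 without the fold threshold. With the 60th percentile CYP1A1, CYP26B1, CYP2A7 and CYP2U1 were not among the genes tested. CYP2U1 was also not tested with averaged probe sets, nor CYP2A7 without _x_at and _s_at probe sets. The cause of the other changes was not tested. CYP2A6, CYP2B6, CYP2U1 and CYP4V2 kept their 5 µM call in all 9 fits with 1 array left out, CYP1A1 and CYP26B1 in 6 and CYP2A7 in 5.

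Signs turned only for changes that were not called. At 5 µM against vehicle, quantile normalization gave 0.01 for CYP1B1, -0.06 for CYP24A1 and -0.02 for CYP2W1, and equal array medians gave -0.13 for CYP24A1 and -0.03 for CYP2W1. Averaged probe sets gave 0.09 for CYP1B1 and 0.02 for CYP3A43, and the actin covariate 0.22 for CYP20A1, -0.49 for CYP24A1 and 0.28 for CYP3A7-CYP3A51P. With 1 array left out the change was -0.10 to 0.01 for CYP1B1, -0.30 to 0.05 for CYP20A1, -0.34 to 0.44 for CYP24A1 and -0.03 to 0.54 for CYP2W1. At 10 µM against vehicle, the actin covariate gave -1.67 for CYP1A1, -1.96 for CYP26B1, -0.22 for CYP2A6, 0.43 for CYP2A7 and 0.11 for CYP2B6. CYP2A7 was 0.28 there with low signals raised and 0.57 with 10 µM replicate 1 alone at that dose. The second CYP2U1 probe set, tested on its own as an alternative chosen after seeing the data, gave 0.38 for 10 µM against 5 µM. The cause of these changes was not tested.

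With a replicate block, the P450 calls were the same genes, 6 higher and 1 lower at 5 µM against vehicle, 2 lower at 10 µM against 5 µM and 1 higher at 10 µM against vehicle. Deviations of arrays with the same number correlated by -0.089 to 0.179, so the numbers were not taken to pair the cultures. Over all genes, calls at 5 µM against vehicle (1011 higher, 155 lower) became 555 higher with the actin covariate, 443 lower with equal array medians, and 2380 and 1561 without the fold threshold. Those at 10 µM against 5 µM (31 and 245) became 145 and 492 with array weights, 13 and 101 with the methods' t-test, 0 and 12 with the actin covariate, 815 and 1049 without the fold threshold, 58 higher with 10 µM replicate 1 alone, and 12 to 96 and 138 to 343 with 1 array left out. Those at 10 µM against vehicle (716 and 176) became 459 and 475 with equal array medians, 333 and 104 with the methods' t-test, 0 and 0 with the actin covariate, 321 lower with array weights, and 2330 and 1565 without the fold threshold. The share of these calls that were higher was 80.3% as deposited, 68.9% with quantile normalization and 49.1% with equal array medians. Changes under 2-fold were outside a call by its definition.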
